A study of Mus musculus with 6 samples.

Results

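Prostaglandins and leukotrienes are made by a short chain of enzymes, and the transcripts of 8 genes from that chain were followed here across 3 genotypes of mouse macrophages. The genes were Pla2g4a, Ptgs1, Ptgs2, Ptges, Alox5, Alox5ap, Lta4h and Ltc4s, a list chosen for enzyme function. Each was found by its symbol in the deposited count table, so all 8 of 8 were recovered from the 23337 gene symbols it holds, and all 8 passed the low-count filter. The macrophages were grown from bone marrow in medium with M-CSF, the macrophage growth factor, for 7 days and then given LPS, a bacterial cell wall component, at 100 ng/ml for 8 h. The groups were wild type (WT), a knockout of Ch25h, the gene of cholesterol 25-hydroxylase (Ch25hKO), and a double knockout of the liver X receptor genes Nr1h3 and Nr1h2 (LXRdKO). The strain was C57BL/6 throughout. The sources used here do not give the age of the mice or the deleted part of each gene. Every group received LPS, so no value here measures the response to LPS itself.

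As background, cytosolic phospholipase A2 frees arachidonic acid from membrane phospholipids, and this fatty acid then enters one of several branches. Cyclooxygenases turn it into prostaglandin H2, from which prostaglandin E synthase makes prostaglandin E2, the prostanoid known for fever, pain and the damping of several macrophage cytokines. In the other branch, 5-lipoxygenase works with its activating protein FLAP to form leukotriene A4, which is then made into leukotriene B4, a neutrophil attractant, or into the cysteinyl leukotrienes. In macrophages, LPS is known to induce the second cyclooxygenase and the inducible prostaglandin E synthase through Toll-like receptor signalling.

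The 6 libraries, 2 per genotype, held 41650513 to 45872964 counts each. Each knockout library was low in its targeted genes: Ch25h was at 1.62% of the WT level in Ch25hKO, and Nr1h3 and Nr1h2 were at 5.66% and 2.6% in LXRdKO. Macrophage markers dominated, with 10 of them summing to between 17100 and 20700 CPM (counts scaled to library size), while those of other cell types were far lower. The ribosomal transcript Rn45s took 1.01% to 1.06% of counts in LXRdKO and 1.26% to 1.30% in the other libraries, and its part in the results was not tested. Libraries of 1 genotype differed by more than sampling noise, most in WT (chi-square per degree of freedom 11.8, against 4.99 in Ch25hKO and 4.15 in LXRdKO). Nothing in the labels ties the libraries of a group to separate mice or cultures, so the p-values reflect the spread between libraries and that spread may be technical. Fold changes are on the log2 scale, each given ± its standard error (n = 2 libraries a group), and a gene is called when its adjusted p is under 0.05 in edgeR's quasi-likelihood test, adjusted by Benjamini-Hochberg over 12923 genes.

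The prostaglandin E2 branch was strongly expressed and the leukotriene branch, apart from FLAP, hardly at all. Divided by exon length, the WT levels ran from 569 CPM per kb for Ptgs2 to 122 for Ptges, 73.2 for Alox5ap and 30.1 for Pla2g4a. A wide gap followed, with Ptgs1 at 1.92, Lta4h at 1.15, Ltc4s at 0.302 and Alox5 at 0.169 CPM per kb. In WT, no neighbours in that order overlapped between libraries. The closest were Ltc4s (0.250 and 0.355) and Alox5 (0.157 and 0.181), which rest on at most 34 counts per library. The order of the means was the same in Ch25hKO and LXRdKO, but in Ch25hKO the lowest Ptgs1 value and the highest Lta4h value were both 1.41. By raw counts, Ptgs2 ranked between 35 and 40 among all genes in the WT and Ch25hKO libraries and at 119 and 103 in the LXRdKO libraries. Ptgs2 supplied 76.3% and 77.2% of the counts of the 8 genes in WT, 71.0% and 70.5% in Ch25hKO, with 61.4% and 64.3% in LXRdKO.

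**Figure D1:**
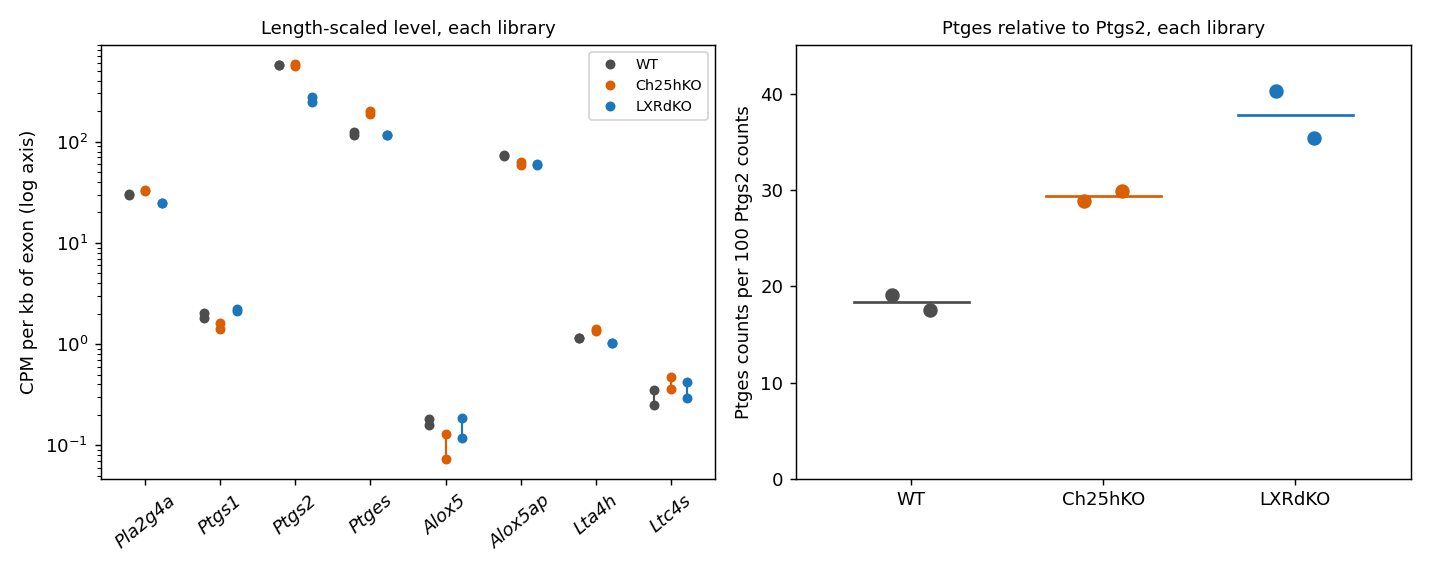
Left, level of each enzyme gene in each library as CPM per kb of annotated exon on a log axis, with a line joining the 2 libraries of a genotype. Right, Ptges counts per 100 Ptgs2 counts in each library, with the group mean as a line. The left panel spans from 0.0731 for Alox5 to 581 for Ptgs2, both in Ch25hKO libraries, and on the right the 2 LXRdKO libraries stand highest, at 40.3 and 35.4.

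Ptges rose most in Ch25hKO, and Ptgs2 fell most in LXRdKO. In Ch25hKO against WT, 3 of the 8 genes rose (Ptges, Pla2g4a and Lta4h) and 2 fell (Ptgs1 and Alox5ap), a share to be read against 39.3% of all tested genes called in that comparison, 19.8% higher and 19.5% lower. In LXRdKO against WT, 0 rose and 3 fell (Ptgs2, Pla2g4a and Alox5ap), where 31.8% of all tested genes were called, 16.4% higher and 15.5% lower. Directly between the knockouts, 4 were lower in LXRdKO (Ptgs2, Ptges, Pla2g4a and Lta4h) and 1 was higher (Ptgs1), where 37.9% were called, 19.3% higher and 18.6% lower. The median log2 change of the 8 was 0.07 in Ch25hKO and -0.16 in LXRdKO, beside 0.01 and 0.00 over all tested genes. The comparisons share their libraries, WT serving in both of the first. The share of members called was not set apart from the background by any test, and the values of each member follow.

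**Figure D2:**
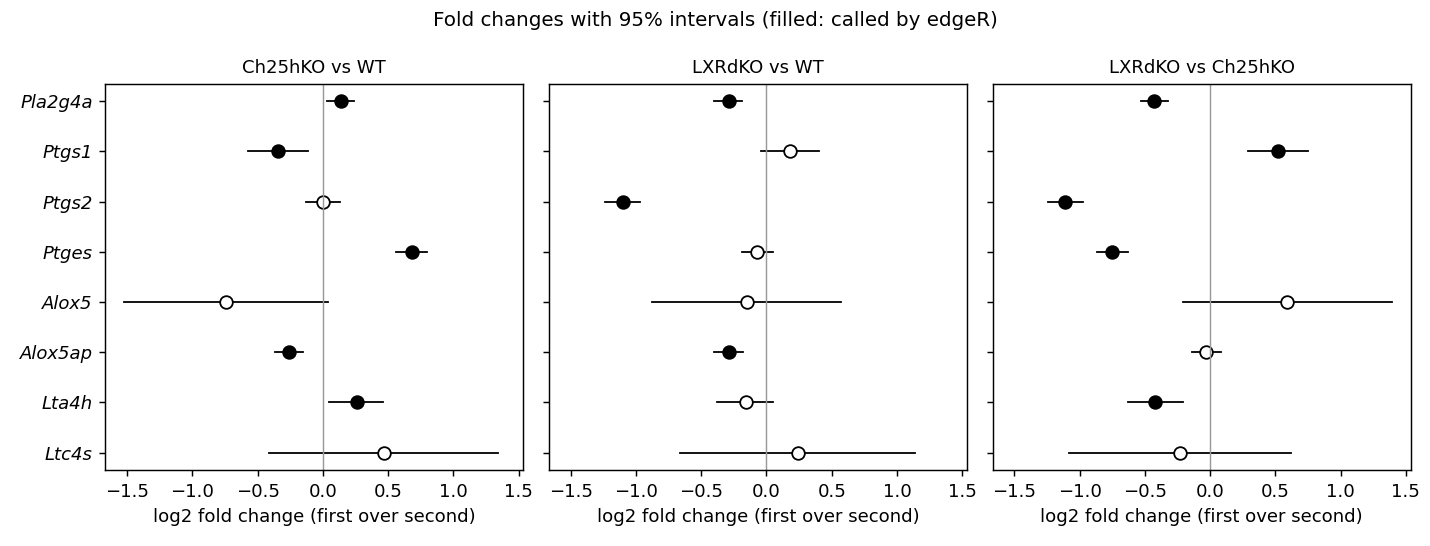
Log2 fold change of each enzyme gene in the 3 comparisons, with its 95% interval from edgeR's quasi-likelihood fit. Filled points were called. Ptgs2 is the lowest point in both comparisons that involve LXRdKO, Ptges the highest called point in Ch25hKO against WT, and the intervals of Alox5 and Ltc4s are the widest in every panel.

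Pla2g4a encodes cytosolic phospholipase A2 alpha, the enzyme that supplies arachidonic acid (chromosome 1, 149829618 to 149961290, GRCm38). It stood at 195 and 190 CPM in WT, 210 and 212 in Ch25hKO, against 157 and 158 in LXRdKO. The 3 genotypes did not overlap, with LXRdKO lowest and Ch25hKO highest. The fall in LXRdKO, to 81.7% of WT, was called (-0.29 ± 0.05, edgeR adjusted p = 0.000210), and LXRdKO was also lower than Ch25hKO (-0.43 ± 0.05, edgeR adjusted p = 1.99e-06). In bulk samples, less RNA per cell and fewer cells of one type cannot be told apart, here or below. The rise in Ch25hKO was small (0.14 ± 0.05, edgeR adjusted p = 0.0372), and 9 of 15 alternatives did not call it, among them those without any 1 library other than WT replicate 1 (0.10 to 0.14), with adjusted p-values of 0.0154 to 0.187 over the alternatives.

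Ptgs2 encodes COX-2, the inducible cyclooxygenase (ENSMUSG00000032487.8, chromosome 1, 150100031 to 150108227). Its level was 2600 and 2610 CPM in WT, 2560 and 2660 for Ch25hKO, and 1140 and 1280 for LXRdKO. Both LXRdKO libraries lay under all 4 others, and the WT and Ch25hKO libraries overlapped. Without the LXRs, Ptgs2 fell 2.15-fold, to 46.5% of WT (95% interval 42.4% to 51.0%), by 1.10 ± 0.06 on the log2 scale (edgeR adjusted p = 6.12e-10). In Ch25hKO the difference from WT was 0.00 ± 0.06 with a 95% interval of -0.13 to 0.13 (edgeR adjusted p = 0.980). The direct comparison of the knockouts gave -1.11 ± 0.06 (edgeR adjusted p = 2.45e-10). Over all 15 alternatives the LXRdKO change against WT stayed between -1.19 and -1.02 and was called.

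Ptgs1 encodes COX-1, the constitutive cyclooxygenase (chromosome 2, 36230426 to 36252272), and it was a minor transcript. It had 7.88 and 7.04 CPM in WT, 5.47 and 6.33 in Ch25hKO, with 8.25 and 8.64 in LXRdKO. Its order was the reverse of that of Pla2g4a, with Ch25hKO lowest and LXRdKO highest, and no overlap between groups. Ptgs1 fell in Ch25hKO to 79.0% of WT (-0.34 ± 0.11, edgeR adjusted p = 0.0208). DESeq2 did not call this change (-0.35), nor did the fits that left out WT replicate 1 (-0.26) or Ch25hKO replicate 1 (-0.25), and adjusted p-values ran from 0.00511 to 0.209 over all alternatives. In LXRdKO it did not pass against WT (0.18 ± 0.11, edgeR adjusted p = 0.216), and it was higher than in Ch25hKO (0.52 ± 0.11, edgeR adjusted p = 0.000932). Ptgs2 counts per Ptgs1 count were 331 and 370 for WT, 469 and 420 for Ch25hKO, and 138 and 149 for LXRdKO.

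**Figure D3:**
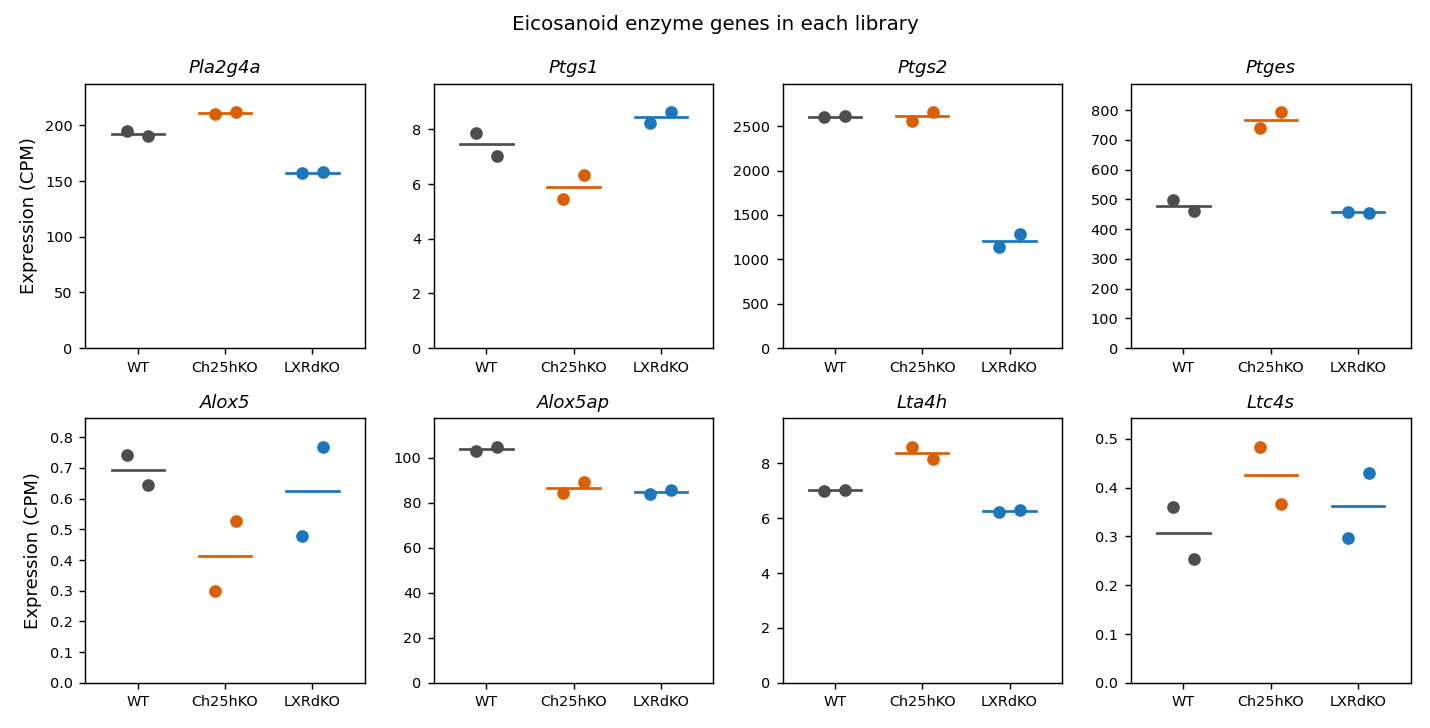
Expression in CPM of each enzyme gene in the 6 libraries on linear axes that start at 0, with 1 point per library and a line at the mean of each genotype. The LXRdKO points of Ptgs2, at 1140 and 1280, and the Ch25hKO points of Ptges, at 739 and 794, stand apart from the other 4 libraries of their panels.

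Ptges encodes the inducible microsomal prostaglandin E synthase, which acts on the product of the cyclooxygenases (ENSMUSG00000050737.13, chromosome 2, 30889471 to 30929863). It was at 497 and 460 CPM in WT, 739 and 794 in Ch25hKO, against 459 and 455 in LXRdKO. The Ch25hKO libraries lay well above the other 4, and the LXRdKO libraries lay just below the lower WT library. In Ch25hKO, Ptges rose 1.60-fold (95% interval of the level 147% to 174% of WT), by 0.68 ± 0.06 (edgeR adjusted p = 5.50e-08), and the change lay between 0.61 and 0.74 in all 15 alternatives. In LXRdKO it was at 95.5% of WT (-0.07 ± 0.06, 95% interval -0.19 to 0.05, edgeR adjusted p = 0.413), and LXRdKO was 1.68-fold lower than Ch25hKO (-0.75 ± 0.06, edgeR adjusted p = 1.16e-08). The ratio of the 2 genes within a library, which needs no scaling between libraries, was 19.1 and 17.6 Ptges counts per 100 Ptgs2 counts in WT, 28.9 and 29.9 for Ch25hKO, and 40.3 and 35.4 for LXRdKO. The ratio was thus above WT in both knockouts, through a higher Ptges level in one and a lower Ptgs2 level in the other.

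The start regions of these genes are shown because Ptgs2 and Ptges, the most abundant of the 8 transcripts per length, differed in which knockout they changed. Each window runs from 100 bases before the annotated start to 30 bases after it, 5′ to 3′ on the gene's own strand, from RefSeq's GRCm38.p6 table, at chr1:150099931-150100060 (plus strand) for Ptgs2 and chr2:30903268-30903397 (minus strand) for Ptges. The start is RefSeq's, which for Ptges lies inside the longer GENCODE gene span given above and not at its end.
Ptgs2: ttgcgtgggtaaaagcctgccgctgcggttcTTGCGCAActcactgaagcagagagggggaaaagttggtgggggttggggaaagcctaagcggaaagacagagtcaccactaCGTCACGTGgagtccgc
Ptges: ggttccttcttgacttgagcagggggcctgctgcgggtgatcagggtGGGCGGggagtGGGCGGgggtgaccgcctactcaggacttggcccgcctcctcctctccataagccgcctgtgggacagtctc
Capitals in the Ptgs2 window mark TTGCGCAA, the palindromic C/EBP motif, at bases -69 to -62, and a run in which the cAMP-response core TGACG (read on the other strand, bases 14 to 18) overlaps the E-box CACGTG (bases 17 to 22). Capitals in the Ptges window mark a pair of GC boxes, GGGCGG, at bases -53 to -48 and -42 to -37. Bases before the annotated start are negative and those after it positive.

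Promoter entries of 300 bases were found for 7 of the 8 genes, and the motifs were searched on both strands of these and of all 32851 entries in the table. TTGCGCAA was in 0.183% of all entries, CACGTG in 7.15% and TGACG in 20.8%, and among the 7 genes each of these was found in Ptgs2 alone. GGGCGG was in 35.7% of all entries and in those of Ptgs2, Ptges and Alox5. A loose NF-kB frame, GGG and CC with 5 bases between them, was in 50.8% of all entries and in 5 of the 7 genes (Ptgs1, Ptgs2, Ptges, Alox5 and Lta4h). The sterol-response letters TCACNCCAC (1.24% of all entries) and a direct repeat of AGGTCA with 4 bases between the copies, the LXR consensus (0.0152%), were in none of the 7. A match describes the letters only, and a missing match says only that these exact letters are not in these windows.

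In the leukotriene branch, Alox5ap was the single abundant transcript. It encodes FLAP, the membrane protein that presents arachidonic acid to 5-lipoxygenase (chromosome 5, 149264767 to 149288153). It was at 103 and 105 CPM in WT, 84.3 and 89.1 in Ch25hKO, with 84.0 and 85.8 in LXRdKO. All 4 knockout libraries were below both WT libraries, and the knockouts overlapped each other. Alox5ap fell by 0.26 ± 0.05 in Ch25hKO (edgeR adjusted p = 0.000617) and by 0.29 ± 0.05 in LXRdKO (edgeR adjusted p = 0.000303). The knockouts differed by -0.03 ± 0.05, with a 95% interval of -0.14 to 0.08 (edgeR adjusted p = 0.696). An antisense gene model overlaps 13.3% of its exon bases, and the counting is not stated to use strand.

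Alox5, the gene of 5-lipoxygenase itself (chromosome 6, 116410077 to 116461178), was scarce. Its libraries held 33 and 28 counts for WT, 13 and 23 for Ch25hKO, and 21 and 34 for LXRdKO. The libraries of LXRdKO overlapped those of both other groups, and those of Ch25hKO lay below WT. No difference was called: the change was -0.74 ± 0.37 in Ch25hKO (95% interval -1.52 to 0.04, edgeR adjusted p = 0.125) and -0.15 ± 0.34 in LXRdKO (95% interval -0.88 to 0.57, edgeR adjusted p = 0.779). At so few counts these intervals leave room for a change of over 1.5-fold in both comparisons.

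Lta4h encodes leukotriene A4 hydrolase, which makes leukotriene B4 (chromosome 10, 93453411 to 93484875). It was at 7.00 and 7.04 CPM in WT, 8.60 and 8.17 in Ch25hKO, against 6.24 and 6.29 in LXRdKO. The groups did not overlap and had the same order as Pla2g4a. The rise in Ch25hKO (0.26 ± 0.10, edgeR adjusted p = 0.0459) was not called in 12 of 15 alternatives, among them those without any 1 of the 6 libraries (0.21 to 0.29, with adjusted p-values of 0.0420 to 0.257 over all alternatives). The difference between the knockouts was called (-0.42 ± 0.10, edgeR adjusted p = 0.00244), and that between LXRdKO and WT was not (-0.16 ± 0.10, edgeR adjusted p = 0.234). Ltc4s, the gene of leukotriene C4 synthase (chromosome 11, 50236461 to 50238616), was scarcer still, with 16 and 11 counts for WT, 21 and 16 for Ch25hKO, and 13 and 19 for LXRdKO. The LXRdKO libraries overlapped both other groups, and no comparison was called (0.47 ± 0.42 in Ch25hKO, edgeR adjusted p = 0.403, and 0.24 ± 0.43 in LXRdKO, edgeR adjusted p = 0.713). An antisense gene model overlaps 26.4% of the exon bases of Ltc4s.

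For each called member, the 3 genes nearest to it over the 6 libraries were named by Euclidean distance in log2 CPM relative to WT, among 7636 other named genes of at least 5 CPM. Nearest to Ptgs2 was Nfkbiz, which encodes the NF-kB cofactor IkB-zeta (distance 0.154), followed by the lactate transporter gene Slc16a1 (0.323) and the kinesin gene Kif3a (0.333). Nfkbiz was at 238 and 216 CPM in WT, 226 and 224 for Ch25hKO, and 104 and 106 for LXRdKO. Its change in LXRdKO was -1.12 ± 0.06, beside -1.10 ± 0.06 for Ptgs2. Nearest to Ptges was Mid1ip1, whose product is a regulator of acetyl-CoA carboxylase (distance 0.0822), then Sept9 (0.181) and Prmt5 (0.183). Mid1ip1 was at 9.95 and 9.21 CPM in WT, 14.8 and 16.8 in Ch25hKO, with 9.16 and 9.34 in LXRdKO. The nearest genes of the other called members were Vat1 for Pla2g4a (0.0545), Zc3h13 for Lta4h (0.0638), Senp7 for Alox5ap (0.0739) and Max for Ptgs1 (0.0885).

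Around the 8 enzymes, 72 further genes of arachidonic acid handling, prostanoids, leukotrienes and their receptors were listed, of which 50 were tested. In Ch25hKO, 10 of these rose and 9 fell, with a median of -0.01, and in LXRdKO 16 rose and 10 fell, with a median of 0.01. Over all tested genes 19.8% rose and 19.5% fell in Ch25hKO, and 16.4% rose and 15.5% fell in LXRdKO. These shares are the background for each list below, and no list was tested against them. Of the 22 not tested, Pla2g4e, Ptgds, Akr1b3 and Alox12b were listed at 0 in all 6 libraries. By counting error alone, a count of 0 allows up to 3 counts or 0.0654 to 0.0720 CPM per library. That floor does not cover reads of a gene that were not counted under its symbol, which was not tested. These 4 genes were singled out after their values were seen. Low counts also kept out Alox15, the 12/15-lipoxygenase gene, with 3 counts summed over WT, 1 over Ch25hKO and 0 over LXRdKO.

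**Figure D4:**
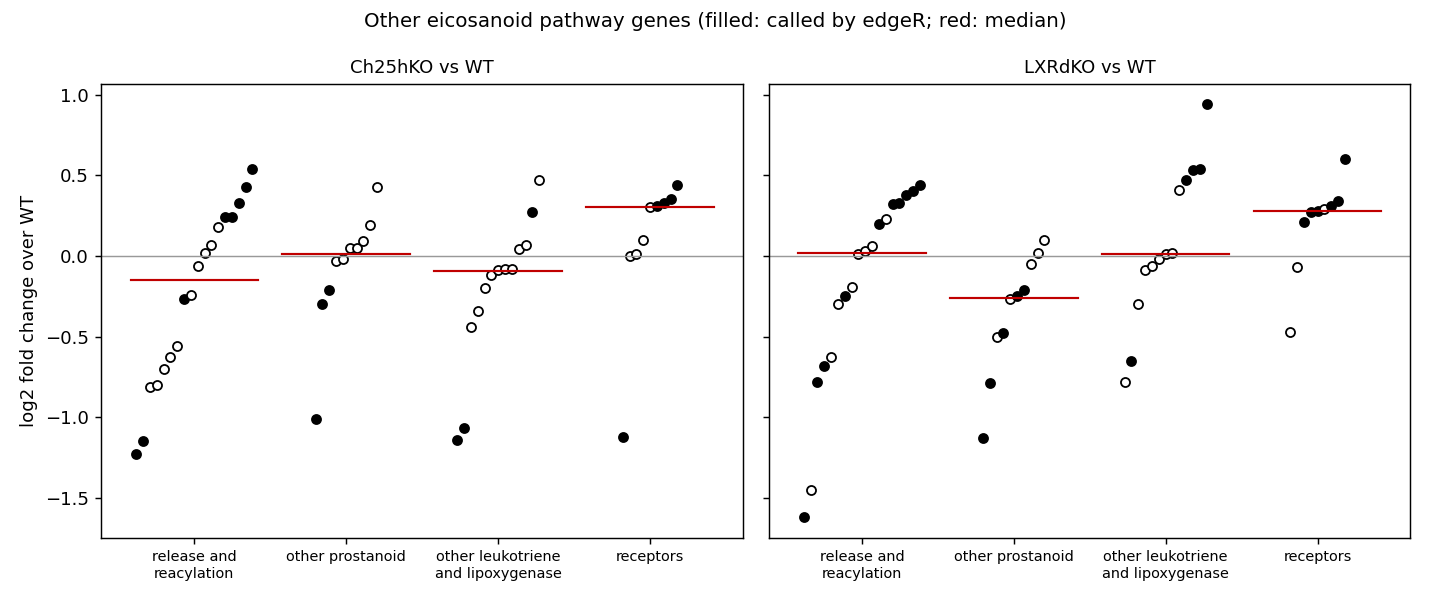
Log2 fold change over WT of the other tested pathway genes in 4 lists, sorted within each list, in Ch25hKO (left) and LXRdKO (right). Filled points were called by edgeR and the red line is the list median. Among prostanoid genes 0 rose in either knockout, and among receptors 4 of 9 rose in Ch25hKO and 6 of 9 in LXRdKO.

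Genes that release arachidonic acid or put it back into phospholipids moved both ways. Of 18 tested, 5 rose and 3 fell in Ch25hKO (median -0.15), and 6 rose and 4 fell in LXRdKO (median 0.02). Lpcat3, which loads polyunsaturated chains onto phosphatidylcholine and is a known LXR target, was at 29.2 and 29.7 CPM in WT, 40.1 and 39.4 in Ch25hKO, against 25.1 and 24.5 in LXRdKO. It rose in Ch25hKO (0.43 ± 0.06, edgeR adjusted p = 1.18e-05) and fell in LXRdKO (-0.25 ± 0.06, edgeR adjusted p = 0.00378), the latter call being lost without LXRdKO replicate 2 (-0.23, with adjusted p-values of 0.00139 to 0.0501 over all alternatives). This was the same order of genotypes as for Pla2g4a. Acsl4, which activates arachidonic acid for reacylation, was abundant at 314 to 332 CPM in all libraries and was called in no comparison (0.07 ± 0.05 in Ch25hKO and 0.06 ± 0.05 in LXRdKO).

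The other 3 acyltransferase genes on the list rose in both knockouts. Lpcat2, which also makes platelet-activating factor, rose by 0.24 ± 0.05 in Ch25hKO and 0.44 ± 0.05 in LXRdKO, Lpcat1 by 0.54 ± 0.09 and 0.38 ± 0.09, and Mboat7, which is specific for phosphatidylinositol, by 0.33 ± 0.06 and 0.32 ± 0.06. Pla2g7, the gene of the hydrolase that breaks down platelet-activating factor, rose by 0.24 ± 0.06 and 0.40 ± 0.06. Pla2g16 fell in Ch25hKO (-0.27 ± 0.06) and rose in LXRdKO (0.33 ± 0.06). Of the scarcer phospholipase genes, Pla2g4c was at 2.63 and 2.79 CPM in WT, 1.15 in both Ch25hKO libraries, and 2.69 and 2.76 in LXRdKO, a fall to 42.5% in Ch25hKO (-1.23 ± 0.18, edgeR adjusted p = 2.94e-05). Pla2g5, a secreted phospholipase gene, fell in LXRdKO to 32.5% of WT (-1.62 ± 0.29, edgeR adjusted p = 0.000303), from 1.17 and 1.29 CPM to 0.387 and 0.407. When scarce genes under 5 CPM were left out, 1 gene of this list fell in each knockout, and without LXRdKO replicate 2 there were 2 that fell in LXRdKO.

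Among the other prostanoid genes, none rose in either comparison with WT. Of 10 tested, 3 fell in Ch25hKO (median 0.01) and 5 fell in LXRdKO (median -0.26), where 19.5% and 15.5% of all tested genes fell. Hpgd encodes the dehydrogenase that inactivates prostaglandins and was at 7.25 and 6.65 CPM in WT, 3.48 and 3.42 for Ch25hKO, and 4.4 and 5.56 for LXRdKO. It fell to 49.6% of WT in Ch25hKO (-1.01 ± 0.13, edgeR adjusted p = 8.82e-06) and to 71.7% in LXRdKO (-0.48 ± 0.12, edgeR adjusted p = 0.00659), the latter call being lost without LXRdKO replicate 1 (-0.32, with adjusted p-values of 0.000852 to 0.131 over all alternatives). Ptgr1, whose product degrades both prostaglandins and leukotriene B4, fell to 81.4% in Ch25hKO (-0.30 ± 0.06, edgeR adjusted p = 0.000784) and to 45.8% in LXRdKO (-1.13 ± 0.06, edgeR adjusted p = 4.36e-10), from 41.9 and 45.3 CPM in WT to 19.5 and 20.4.

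The remaining synthases showed smaller or single-genotype changes. Ptges3, the cytosolic prostaglandin E synthase that also serves as the Hsp90 co-chaperone p23, was at 124 and 117 CPM in WT, 128 in both Ch25hKO libraries, and 74.7 and 64.9 in LXRdKO (-0.79 ± 0.06 against WT, edgeR adjusted p = 3.09e-08). Ptges2 was called in neither comparison with WT (0.19 ± 0.11 and -0.27 ± 0.12). Hpgds, the prostaglandin D synthase, fell by 0.21 ± 0.05 in Ch25hKO and 0.25 ± 0.05 in LXRdKO, the first not being called when Ch25hKO replicate 2 was left out (-0.19, with adjusted p-values of 0.00117 to 0.0541 over all alternatives). The exporter gene Abcc4 fell in LXRdKO (-0.21 ± 0.06), a call lost without LXRdKO replicate 2 (-0.18, edgeR adjusted p = 0.116, and 0.000239 at the lowest). Tbxas1, the thromboxane synthase gene, was at 31.0 to 35.3 CPM in all libraries and was called in neither knockout.

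Of 13 other leukotriene and lipoxygenase genes tested, 1 rose and 2 fell in Ch25hKO (median -0.09), and 4 rose and 1 fell in LXRdKO (median 0.01). Without genes under 5 CPM none fell in either knockout, where the tested genes were fewer, and without WT replicate 1 there were 2 that fell in LXRdKO. Mgst2 and Mgst3, which encode microsomal glutathione transferases related to leukotriene C4 synthase, fell in Ch25hKO to 45.2% (-1.14 ± 0.27, edgeR adjusted p = 0.00223) and 47.6% (-1.07 ± 0.16, edgeR adjusted p = 2.80e-05) of WT, at levels of at most 3.89 CPM. In LXRdKO Mgst3 fell (-0.65 ± 0.15, edgeR adjusted p = 0.00260), and Mgst2 was at 0.41 ± 0.22 (edgeR adjusted p = 0.176). Abcc1, the leukotriene C4 exporter gene, rose in Ch25hKO (0.27 ± 0.06) and was at -0.02 ± 0.06 in LXRdKO. In LXRdKO the rises were those of Dpep2 (0.54 ± 0.05), a dipeptidase gene of leukotriene D4 breakdown, Ephx1 (0.53 ± 0.09), Mgst1 (0.47 ± 0.05) and Dpep3 (0.94 ± 0.24), the last lost without LXRdKO replicate 2 (0.79, edgeR adjusted p = 0.0896, and 0.00109 at the lowest). Cyp4f18, which inactivates leukotriene B4, was at -0.34 ± 0.19 and 0.02 ± 0.18 and was called in neither.

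Of 9 receptor genes tested, 4 rose and 1 fell in Ch25hKO (median 0.30), and 6 rose and 0 fell in LXRdKO (median 0.28), beside 19.8% and 16.4% of all tested genes that rose. Cysltr1, a receptor of cysteinyl leukotrienes, rose from 26.2 and 27.8 CPM in WT to 37.1 and 36.3 in Ch25hKO (0.44 ± 0.06, edgeR adjusted p = 1.19e-05) and to 40.9 and 40.7 in LXRdKO (0.60 ± 0.06, edgeR adjusted p = 5.39e-07). Cysltr2, the other such receptor, went the other way in Ch25hKO, with 7.29 and 6.56 CPM in WT, 2.95 and 3.44 in Ch25hKO (-1.12 ± 0.12, edgeR adjusted p = 1.31e-06), and 8.68 and 8.21 in LXRdKO (0.29 ± 0.11, edgeR adjusted p = 0.0512, with 0.0272 to 0.247 over all alternatives). Fpr2, whose product binds lipoxin A4 and formyl peptides, rose by 0.35 ± 0.05 and 0.34 ± 0.05, and Ptafr, the receptor gene of platelet-activating factor, by 0.33 ± 0.05 and 0.28 ± 0.05.

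Ptger4 and Ptger2 encode receptors of prostaglandin E2. Ptger4 rose by 0.31 ± 0.08 in Ch25hKO and 0.27 ± 0.08 in LXRdKO. The first call was lost without WT replicate 2 or Ch25hKO replicate 1 (0.23 and 0.28, with adjusted p-values of 0.00167 to 0.0774 over all alternatives), and the second with DESeq2 and without WT replicate 2, LXRdKO replicate 1 or LXRdKO replicate 2 (0.20 to 0.28, with 0.00726 to 0.122). Ptger2 rose in LXRdKO (0.31 ± 0.07), a call lost without LXRdKO replicate 1 (0.24, edgeR adjusted p = 0.0783, and 0.000383 at the lowest), and was at 0.10 ± 0.07 in Ch25hKO. Of the exon bases of Ptger4 and Lpcat3, 15.3% and 10.2% are shared with another gene, and the counting is not stated to use strand. Ltb4r1, the high-affinity leukotriene B4 receptor gene, was near 0, at 18 counts summed over WT, 22 over Ch25hKO and 13 over LXRdKO.

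Markers of other cells known for eicosanoid synthesis were read beside these values. Of 9 neutrophil markers in the table, 5 were tested, and their summed level was 39.7 to 40.6 CPM in WT, 52.5 to 55.2 in Ch25hKO and 19.5 to 20.0 in LXRdKO, mostly S100a8, while Elane was at 0 in 5 of 6 libraries. In LXRdKO 4 of the 5 fell, and in Ch25hKO 1 rose. Of 10 mast cell and basophil markers, 3 were tested, and 2 of them fell in each knockout. Mcpt4, Tpsb2 and Cma1 were at 0 in all libraries, and the sum (64.9 to 70.5 CPM in WT, 50 to 53.6 in Ch25hKO and 52.7 to 55.5 in LXRdKO) was mostly Hdc. Of 10 stromal markers, 8 were tested, of which 7 rose and 0 fell in Ch25hKO (median 1.30), while in LXRdKO 2 rose (Col1a1 and Pdgfrb) and 1 fell (Pdpn, median of the list 0.43). Their sum was 309 to 320 CPM in WT, 364 to 407 in Ch25hKO and 232 to 238 in LXRdKO, mostly Pdpn, with Col1a1 at most at 1.93 CPM and Thy1 at 0 in WT and Ch25hKO. Of 8 platelet and megakaryocyte markers, 6 were tested. Their sum was 25.2 to 25.9 CPM in WT, 42.2 to 42.9 in Ch25hKO and 31.2 to 34.5 in LXRdKO, mostly Pf4. In Ch25hKO 1 rose (Pf4) and 2 fell (Gp9 and Treml1), with a list median of -0.13. In LXRdKO 1 rose (Pf4) and 0 fell, with a median of -0.20. Of 10 dendritic cell markers, 8 were tested. Their sum, mostly Xcr1 and Ccr7, was 32.1 to 32.5 CPM in WT, 16.5 to 17.1 in Ch25hKO and 25.0 to 27.6 in LXRdKO. Of the 8, 0 rose and 4 fell in Ch25hKO (median -0.63), and 0 rose and 2 fell in LXRdKO (median -0.49). B cell markers summed to at most 1.22 CPM and T and NK cell markers to at most 3.04. The neutrophil and stromal sums were above WT in Ch25hKO and below WT in LXRdKO. By library values, Ptges was also above WT in Ch25hKO (739 and 794 against 497 and 460 CPM). In LXRdKO Ptges was just below WT (459 and 455 CPM). Ptgs2 overlapped WT in Ch25hKO and was below WT in LXRdKO. Against WT, Ptges was called only in Ch25hKO (0.68 ± 0.06) and Ptgs2 only in LXRdKO (-1.10 ± 0.06). The neutrophil and stromal sums were mostly those of S100a8 and Pdpn. The neutrophil list medians were 0.05 in Ch25hKO and -1.04 in LXRdKO, and the stromal ones 1.30 and 0.43. The part of these markers in the results for Ptges and Ptgs2 was not tested.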

How the data were processed

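The 6 RNA-seq libraries of LPS-treated macrophages were grouped by their labelled genotype. The values deposited by the authors are whole-number counts per gene symbol with no normalization. Per the series' design text, quality-filtered reads were aligned to mm10 with STAR, and the submitters' processing notes name CASAVA, STAR 2.3.0 and HTSeq. The sources used here do not name the annotation, counting mode or strand setting. Libraries were made after cDNA amplification with an Ovation kit, per the labels' protocols, so reads are not independent molecules and intervals or floors from counts cover counting error only.

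Genes were filtered with filterByExpr in edgeR 4.0.16 (R 4.3.3), leaving 12923 of 23337 genes with 99.98% of the counts. A quasi-likelihood model with TMM scaling, robust dispersions and genotype as its factor took in all 6 libraries and all genes, with 3 residual degrees of freedom and calls at an adjusted p under 0.05. A standard error is the log2 fold change divided by the square root of F. The script was tested on simulated data. Exon lengths, positions and overlaps came from GENCODE M21 (GRCm38), which may not be the authors' annotation. The 8 genes, the pathway and marker lists (macrophage, neutrophil, mast cell, dendritic cell, platelet, stromal, B cell, and T and NK cell) and the naming rule were chosen with earlier results of these data known. The rule named, per pathway list, the 5 genes of lowest p in each knockout against WT, plus Tbxas1, Hpgds, Hpgd, Lpcat3, Acsl4, Ptger2 and Ptger4. Alternatives were other scalings, DESeq2 1.42.0, limma-voom (limma 3.58.1), and no filter or a filter of at least 5 CPM in 2 libraries. Others were only the libraries compared, a replicate block and each library left out, with a lone library assumed to vary like the other groups. The 15 alternatives also include a crossed replicate block with the WT numbers swapped, which was chosen after seeing the data.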

Additional observations from a re-analysis of the deposited data

How the results depend on the processing

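The changes of Ptgs2 and Pla2g4a in LXRdKO, of Ptges in Ch25hKO and of Alox5ap in both knockouts kept their direction and call in all 15 alternatives. The number of enzyme genes that rose in Ch25hKO was 1 in place of 3 with RLE scaling, with DESeq2 and with only the libraries compared, and 1 to 2 when a library was left out. The number that fell there was 1 in place of 2 with DESeq2, and 1 to 2 when a library was left out. Both losses concern Pla2g4a, Lta4h and Ptgs1, and Lta4h also lost its call with upper-quartile scaling and with the 5 CPM filter. Over all genes, leaving out 1 library gave 1501 to 2478 higher in Ch25hKO (main 2557, lowest without Ch25hKO replicate 1), 1292 to 2097 higher and 1198 to 2232 lower in LXRdKO (lowest without LXRdKO replicate 1, and 1314 and 1265 without LXRdKO replicate 2), and 1504 to 2828 lower in LXRdKO against Ch25hKO (lowest without LXRdKO replicate 2, and 1585 without Ch25hKO replicate 1). With fewer libraries the fit has fewer residual degrees of freedom.

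Several differences that were never called changed sign near 0. Ptgs2 in Ch25hKO was at -0.01 with RLE or upper-quartile scaling and DESeq2 and at -0.02 with the 5 CPM filter, and Ptger1 at -0.01 with RLE scaling, DESeq2 and that filter and at 0.00 with upper-quartile scaling. Pla2g4c in LXRdKO was at 0.00 with upper-quartile scaling or only the libraries compared, and Mboat7 between the knockouts at 0.00 with RLE scaling or DESeq2. When a library was left out, the ranges that crossed 0 were -0.02 to 0.02 for Ptgs2 in Ch25hKO, -0.53 to 0.15 for Alox5 in LXRdKO, -0.05 to 0.52 and -0.52 to 0.01 for Ltc4s in LXRdKO against WT and against Ch25hKO, and -0.07 to 0.01 for Alox5ap between the knockouts. The same held in Ch25hKO for Abcc4 (-0.02 to 0.09), Dpep2 (0.00 to 0.08), Tbxas1 (-0.10 to 0.03) and Ptger1 (-0.01 to 0.00), in LXRdKO for Pla2g4c (-0.03 to 0.04), Abcc1 (-0.12 to 0.06) and Cyp4f18 (-0.12 to 0.16), and between the knockouts for Mboat7 (-0.05 to 0.03) and Fpr2 (-0.03 to 0.01). The cause was not tested.

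Same-numbered libraries were compared by the correlation of their deviations from the group means over 8141 genes, which was -0.313 for WT and Ch25hKO, -0.0591 for WT and LXRdKO and 0.115 for Ch25hKO and LXRdKO, so the numbers were not taken as pairs. With the replicate number as a block, 1 enzyme gene rose in Ch25hKO in place of 3 (Pla2g4a and Lta4h lost their calls), and the block changed 1 other call among 117 gene changes. The block gave 2372 genes higher and 2393 lower in Ch25hKO, and a crossed block with the WT numbers swapped, chosen after seeing the data, gave 2730 and 2675. Depth limits Alox5 and Ltc4s, whose counts were at most 34 per library.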
